A study of Homo sapiens with 6 samples.

Results

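The insulin-like growth factor binding proteins (IGFBPs) IGFBP1 to IGFBP7 were examined in EJ/T24 cells, an established human line of invasive bladder cancer, after transfection with FOXA1. Members were all probesets whose platform annotation gives a single symbol and that symbol is 1 of these 7 genes. This gave 16 of the 54613 probesets tested. IGFBP1 had 2 probesets, IGFBP2 had 1, IGFBP3 had 2, IGFBP4 had 1, IGFBP5 had 6, IGFBP6 had 1 and IGFBP7 had 3. The arrays were 6 of the type HG-U133 Plus 2.0. Of these, 3 held RNA from dishes that received a FOXA1 construct, and the other 3 came from dishes with an empty plasmid (control). Per the labels, cells in DMEM with 10% FCS at 70% confluence in a 90 mm dish received 24 μg of DNA with Lipofectamine 2000. The labels give pUC19 as the empty plasmid, whereas the methods describe a pcDNA3 vector and another Lipofectamine reagent. Only this single line was used, and the share of cells that took up the plasmid and the RNA level in each of them cannot be told apart in such bulk samples. The methods describe the transfection per dish and as done in triplicate, but do not say outright that each array had a dish of its own. P-values set a difference between groups against the scatter among these 6 arrays, part of which may be technical.

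IGFBPs are secreted proteins that bind the insulin-like growth factors IGF1 and IGF2 and hold them in the circulation and around cells. Binding can keep the ligand from its receptor IGF1R, and proteases that cut the IGFBP set it free again. IGFBP3 is the main carrier in serum, where it forms a complex with IGF and the acid-labile subunit, and it can also act on cells without IGF. IGFBP7 binds IGF only weakly. FOXA1 is a pioneer factor of the forkhead family, known for its role in urothelial and breast differentiation.

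Each value is a MAS5 signal, a linear brightness that the authors scaled to a like mean on every array, and the median signal of an array ran from 12.3 to 17.5. Of all signals, 20% lay under 3.5 (the 20th percentile), and log2 differences had wide intervals at that level. FOXA1 was read at 204667_at with signals of 38.9, 34.8 and 31.9 in the FOXA1 transfected arrays and 21.8, 24.4 and 21.0 in the control arrays. All transfected arrays were above all control arrays, with means of 35.2 ± 3.52 and 22.4 ± 1.78 (SD, n = 3 each). The log2 difference of 0.65 (SE 0.23) did not pass limma with Benjamini-Hochberg adjustment over all probesets (adjusted p = 0.307). The other FOXA1 probeset, 237086_at, had means of 5.30 and 7.07 and overlapping groups. Whether either probeset lies within the construct's sequence is not given. The paper checked FOXA1 protein by western blot in part of the transfected cells, which the arrays do not measure. Among 14 urothelial and epithelial markers, for the labelled cell type, the luminal keratin KRT18 was the brightest. Its mean signal was 2478 in FOXA1 transfected and 2261 in control arrays, and PPARG came next at 31.8 and 35.6. UPK2, UPK3A, KRT20, KRT19 and CDH1, 5 of the 14, had mean signals over all 6 arrays under 3.5. The log2 difference was above 0 in 10 of the 14, with a median of 0.12, and 0 passed limma. Of 3 mesenchymal markers, the filament gene VIM had mean signals of 4068 and 3836, the cadherin gene CDH2 361.6 and 494.8 and the fibronectin gene FN1 15.4 and 24.6 in FOXA1 transfected and control arrays. None passed limma, their median log2 difference was -0.45, and their part in the values below was not tested. Of 12 markers of leukocytes, endothelium, muscle and liver, 10 were read and 0 passed, with summed signals of 92.6 to 107 in FOXA1 transfected and 73.0 to 113.5 in control arrays. ACTB, read near both ends of its transcript, had a 3′ over 5′ signal ratio (a measure of RNA length) of 2.37 ± 0.228 in FOXA1 transfected and 1.73 ± 0.188 in control arrays (SD, n = 3 each) and did not overlap between groups, whereas that of GAPDH was 0.920 ± 0.0217 and 0.899 ± 0.00926.

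IGFBP3 had the smallest p of the family. Both of its probesets were higher in all FOXA1 transfected arrays than in all control arrays, by 1.54-fold and 1.60-fold. IGFBP7, the only other member with signals over 100, overlapped between the groups. IGFBP6 and IGFBP5 had low signals and overlapped at all of their probesets, and IGFBP1, IGFBP2 and IGFBP4 had signals at or near the 20th percentile. None of the 16 probesets passed limma at an adjusted p under 0.05, nor significance analysis of microarrays (SAM), against 32 of 54613 probesets on the whole array by limma (0.0586%). The unadjusted limma p was under 0.05 at 4 of the 16, against 11.3% of all probesets. These were both IGFBP3 probesets, 205302_at of IGFBP1 and 211959_at of IGFBP5. The IGFBP1 and IGFBP5 probesets were lower after transfection and had 4 and 2 arrays under 3.5. Of the 16, 2 had all FOXA1 transfected arrays above all control arrays (10.5% of all probesets), 1 had them all below (5.86%) and 13 overlapped. The log2 difference was above 0 at 12 probesets and below 0 at 4, and its median was 0.37, beside 0.08 over all probesets. At the brightest probeset of each gene, 59.2% of all genes were above 0. Of the 16 probesets, 9 had an array under the 20th percentile and 6 belonged to IGFBP5. The median therefore does not stand for a shared shift of the 7 genes.

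**Figure D1:**
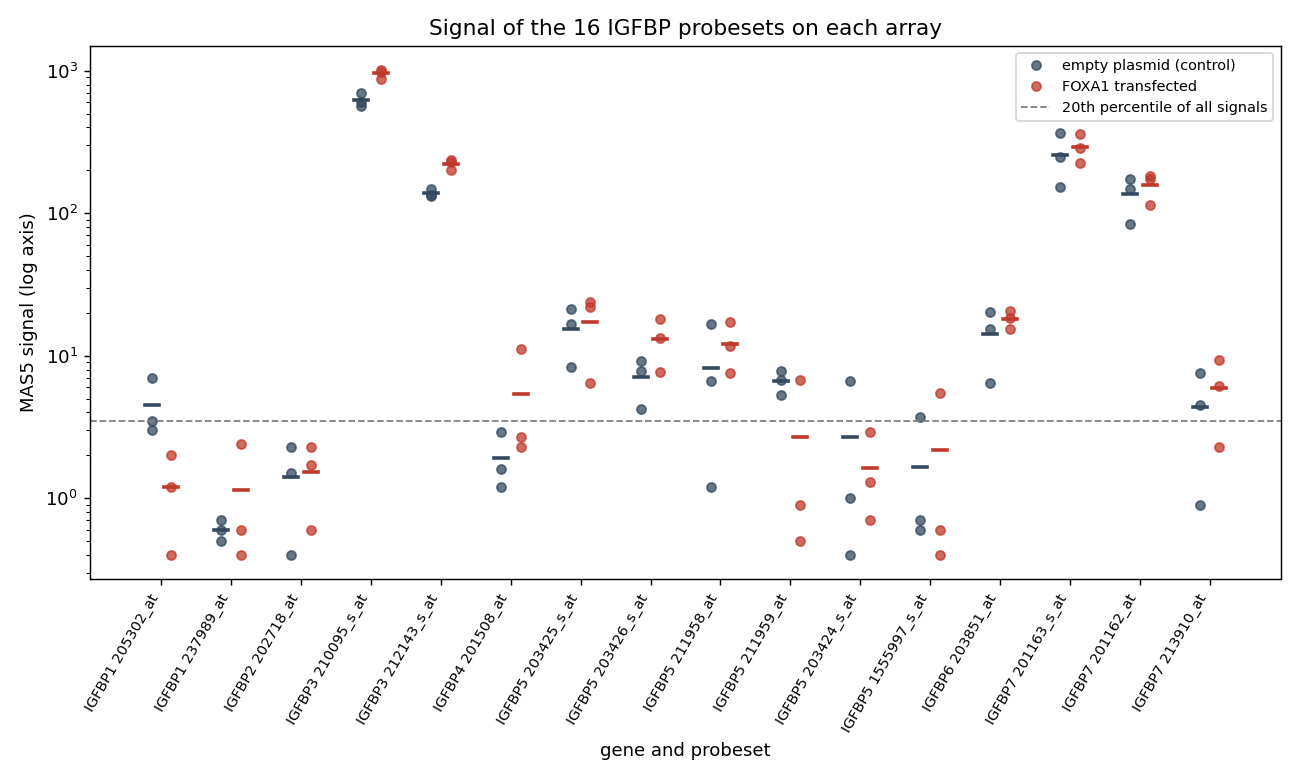
MAS5 signal (log axis) of each of the 16 IGFBP probesets (horizontal axis) on the 3 control and 3 FOXA1 transfected arrays, with points for arrays, short lines for group means and a dashed line at the 20th percentile of all signals (3.5). Both IGFBP3 probesets and the pair of bright IGFBP7 probesets stand above 80 on every array, the IGFBP3 groups do not overlap and the IGFBP7 groups do.

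IGFBP3 lies on chromosome 7 in GRCh38.p14, at chr7:45912245-45921272, 18584 bases from IGFBP1 (chr7:45888488-45893660) with no other listed gene between them. At 210095_s_at its signals were 880.5, 1008.9 and 983.1 in the FOXA1 transfected arrays and 699.6, 566.7 and 602.1 in the control arrays. The lowest transfected array was thus above the highest control array. The means were 958 ± 67.9 and 623 ± 68.8 (SD, n = 3 each). The log2 difference, FOXA1 transfected minus control, was 0.62 (SE 0.10, 95% interval 0.41 to 0.83), or 1.54-fold (interval 1.33 to 1.78), with a limma adjusted p of 0.0590. The ACTB ratio given above also separated the groups, and its part in this difference was not tested. The direction is opposite to that in the study's own list, where IGFBP3 is given as lower after FOXA1 transfection. With arrays grouped by their labels, the FOXA1 signal at 204667_at (above) was higher in the transfected arrays. That difference did not pass limma (adjusted p = 0.307). The other FOXA1 probeset had a log2 difference of -0.54, with overlapping groups. Why the direction at IGFBP3 differs from that in the study's list was not tested.

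At the other IGFBP3 probeset, 212143_s_at, the signals were 234.9, 229.3 and 200.2 in the FOXA1 transfected arrays and 134.5, 146.9 and 132.6 in the control arrays. Here too no array of one group reached the other. The means were 221 ± 18.6 and 138 ± 7.77 (SD, n = 3 each), and the log2 difference was 0.68 (SE 0.11, 95% interval 0.45 to 0.91) or 1.60-fold (1.37 to 1.88), again with a limma adjusted p of 0.0590. By unadjusted p these probesets stood at ranks 38 and 41 of 54613, and 42 probesets had an adjusted p as small as theirs. The smallest two-sided p that 3 arrays against 3 can give in an exact permutation test is 0.1, which both probesets had.

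The log2 differences of both probesets were 0.06 apart, less than the SE of either. The gap between them on each array overlapped between the groups (exact permutation p = 0.7). Averaged over both probesets and tested beside the means of 19775 genes, IGFBP3 had a log2 difference of 0.65 (SE 0.07, 95% interval 0.48 to 0.82), and passed limma with an adjusted p of 0.0427. It ranked 4 by p, and 5 of 19775 genes passed (0.0253%). That call held under quantile normalization (adjusted p = 0.0360) but in none of 8 further settings, where limma gave adjusted p of 0.0746 to 0.535 and log2 differences of 0.47 to 0.69. The setting that moved the difference most was median centring, with a log2 difference of 0.47 and an adjusted p of 0.535 by limma. Among the probesets brighter than the median mean signal of 14.5, taken alone, 174 of 27298 passed (0.637%), and both IGFBP3 probesets were among them with limma adjusted p of 0.0212 and 0.0283.

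**Figure D2:**
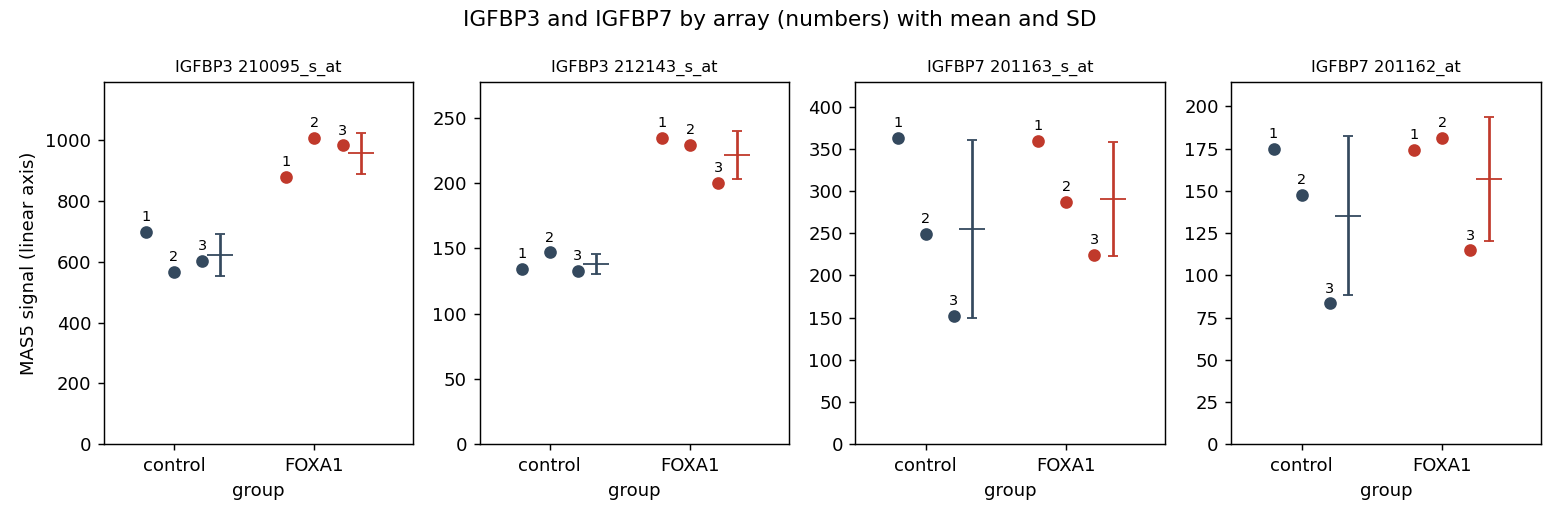
MAS5 signal (linear axis from 0) at both IGFBP3 probesets and the pair of bright IGFBP7 probesets, by group, with points numbered by array and crosses for mean and SD (n = 3). The lowest FOXA1 transfected array at IGFBP3 (880.5 and 200.2) exceeds the highest control array (699.6 and 146.9), whereas at IGFBP7 array 3 is lowest in both groups and the groups overlap.

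**Figure D3:**
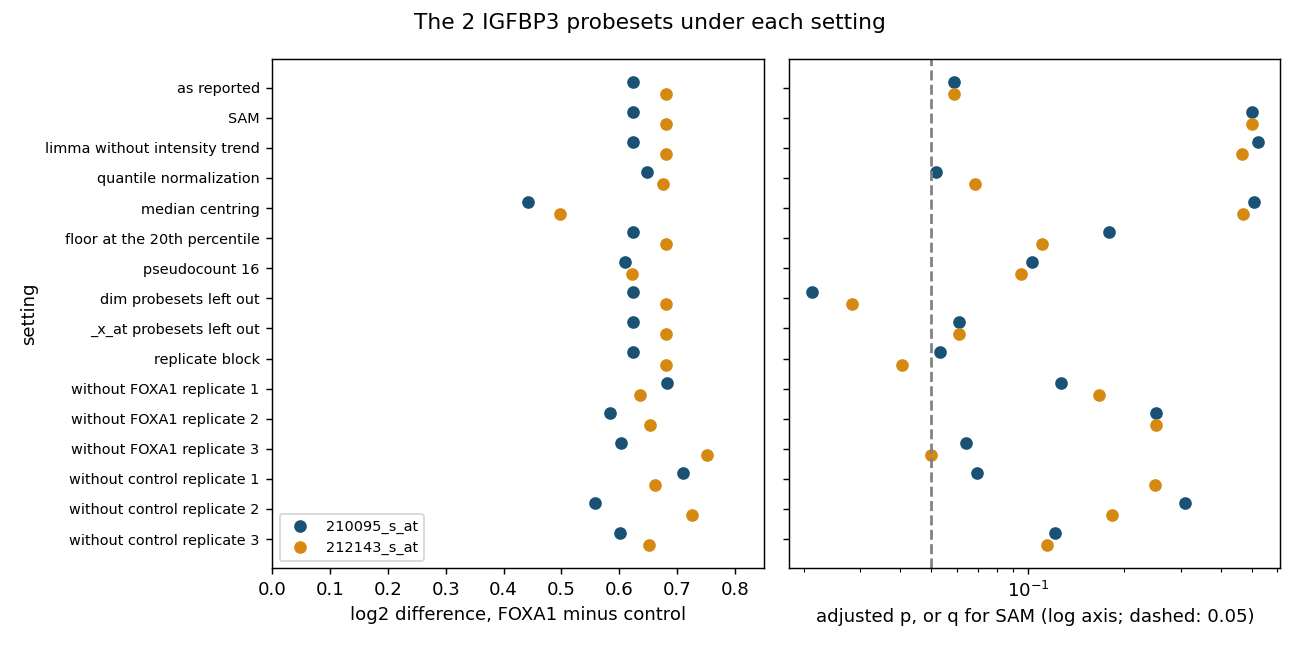
Log2 difference (left) and limma adjusted p, or q for SAM (right, log axis, dashed line at 0.05), of both IGFBP3 probesets as reported and under 15 other settings. The differences stay above 0 throughout (0.44 to 0.71 at 210095_s_at and 0.50 to 0.75 at 212143_s_at), whereas adjusted p lies on both sides of 0.05 (0.0212 to 0.522 and 0.0283 to 0.498).

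The transfected factor binds DNA, so the bases before the starts of the IGFBP genes are of interest. RefSeq sequence (GRCh38.p14) of the 250 bases before a start was held for 5 of the 7 members in 7 windows, IGFBP2 having 3 alternative starts. The IGFBP3 window, chr7:45921273-45921522 on the minus strand, is printed because this gene had the measured difference, with every CpG in capitals.
IGFBP3: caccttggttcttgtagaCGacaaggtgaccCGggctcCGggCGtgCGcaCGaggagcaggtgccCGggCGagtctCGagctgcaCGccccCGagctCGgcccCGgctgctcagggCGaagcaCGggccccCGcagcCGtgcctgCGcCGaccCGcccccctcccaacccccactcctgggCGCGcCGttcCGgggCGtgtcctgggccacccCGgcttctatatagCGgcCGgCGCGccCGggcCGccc
It had 32 CpG and 76.0% G or C, more CpG than 90.5% of 35116 promoter windows, whose medians were 11 CpG and 58.0% G or C. Windows of the other members with sequence held 4 to 24 CpG. As forms of the forkhead motif, the letters TGTTTAC were searched on both strands, then likewise TGTTTGC, followed by TATTTAC, and last by TATTTGC, and 10.6% of all windows held 1 or more. The IGFBP3 window held none, as did those of IGFBP4 and IGFBP5. A match was found in 2 of the 7 windows, shown here with 12 bases on each side and the match in capitals, both on the plus strand of the genome.
IGFBP6: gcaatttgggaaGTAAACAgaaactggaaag
IGFBP2: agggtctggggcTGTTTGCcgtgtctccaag
The IGFBP6 stretch is chr12:53097469-53097499 and starts its match 186 bases before the end of the window, in the reverse complement form. The IGFBP2 stretch is chr2:216659451-216659481, before the third listed start, 104 bases before the end of that window. Neither IGFBP6 nor IGFBP2 differed beyond the spread between arrays (below), and a match of letters is not a bound site.

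IGFBP7 (chr4:57030773-57110385) is found in the matrix of vessels and of many epithelia. At 201163_s_at its signals were 359.7, 287.5 and 224.7 in the FOXA1 transfected arrays and 363.4, 249.3 and 151.9 in the control arrays. At 201162_at they were 174.5, 181.6 and 114.8 against 174.9, 147.7 and 83.4. In both groups and at both probesets the array numbered 3 was lowest, and the groups overlapped. The log2 difference was 0.25 at each, with limma 95% intervals of -0.32 to 0.83 at 201163_s_at and -0.30 to 0.81 at 201162_at and adjusted p of 0.768 and 0.757. Over the 6 arrays the log2 signals of this pair had a Pearson r of 0.942, beside 0.876 for both IGFBP3 probesets. The third IGFBP7 probeset, 213910_at, had signals of 0.9 to 9.3, of which 2 arrays lay under 3.5. Without control array 3 the log2 difference turned to -0.077 at 201163_s_at, -0.064 at 201162_at and -0.21 at 213910_at. That omission kept FOXA1 transfected array 3, also the lowest of its group at the bright pair. Without FOXA1 transfected array 3 the difference was 0.42, 0.46 and 0.26 at these probesets. A replicate block, which compares same-numbered arrays, left 0.25 at each of the bright pair, with limma adjusted p of 0.392 and 0.411.

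IGFBP6 (chr12:53097667-53102340) prefers IGF2 over IGF1. At 203851_at the FOXA1 transfected arrays read 20.5, 18.3 and 15.3 and the control arrays 15.5, 6.4 and 20.4. The transfected arrays thus lay within or close to the control range, and control array 2 was low. The means were 18.0 ± 2.61 and 14.1 ± 7.10 (SD, n = 3 each), and the log2 difference of 0.50 had a 95% interval of -0.50 to 1.5 (limma adjusted p = 0.730). Without control array 2 it was 0.0099, and without control array 3 it was 0.85.

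IGFBP5 (chr2:216672105-216695549), a binding protein of bone and muscle that attaches to the extracellular matrix, was read by 6 probesets that gave no single direction. At its brightest probeset, 203425_s_at, signals were 23.9, 6.4 and 21.8 in FOXA1 transfected and 16.7, 21.4 and 8.3 in control arrays, with a log2 difference of 0.06. At 203426_s_at they were 18.1, 13.3 and 7.7 against 9.2, 4.2 and 7.8, a log2 difference of 0.87. At 211958_at they were 7.5, 17.1 and 11.7 against 1.2, 6.6 and 16.7, a log2 difference of 1.17, which was 0.12 without control array 1 and 2.02 without control array 3. The groups overlapped at each of these, and limma adjusted p ran from 0.590 to 0.983. At 211959_at the difference was the other way, with signals of 0.5, 6.7 and 0.9 against 6.7, 5.3 and 7.8 and a log2 difference of -2.17 (limma adjusted p = 0.429), on arrays of which 2 lay under 3.5. With a floor at 3.5 this difference was -0.58, with a pseudocount of 16 it was -0.29, and without FOXA1 transfected array 1 or 2 it was -1.41 or -3.28. The remaining IGFBP5 probesets, 203424_s_at and 1555997_s_at, read 0.4 to 6.6 on all arrays, with log2 differences of -0.00018 and -0.08. The mean over all 6 IGFBP5 probesets differed by -0.026.

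IGFBP2 (chr2:216632828-216664436) lies 7668 bases from IGFBP5 with no listed gene between them. Its probeset 202718_at read 2.3, 0.6 and 1.7 in FOXA1 transfected and 1.5, 0.4 and 2.3 in control arrays. All 6 signals were under the 20th percentile, and the log2 difference of 0.26 (limma 95% interval -1.74 to 2.25) carries no direction. IGFBP4 (chr17:40443450-40457725), a target of the protease PAPPA, read 2.7, 11.2 and 2.3 against 1.6, 1.2 and 2.9 at 201508_at. Of these arrays 5 were under 3.5, and only FOXA1 transfected array 2 stood out. Its log2 difference of 1.21 had a limma 95% interval of -0.65 to 3.08 (adjusted p = 0.636). Without that array it was 0.49, with the floor 0.56 and with the pseudocount 0.23.

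IGFBP1, the liver's insulin-regulated binding protein, is known as a target of forkhead factors. At 205302_at it read 0.4, 1.2 and 2.0 in FOXA1 transfected and 3.0, 3.5 and 7.0 in control arrays. Every transfected array was below every control array, but 4 of the 6 signals lay under 3.5. The log2 difference of -2.09 (95% interval -3.96 to -0.21) had a limma adjusted p of 0.386. It was -0.33 with a floor at 3.5 and -0.25 with a pseudocount of 16. Its other probeset, 237989_at, read 0.4 to 2.4 on all 6 arrays, all under 3.5, with a log2 difference of 0.49, so the probesets of this gene did not share a direction.

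**Figure D4:**
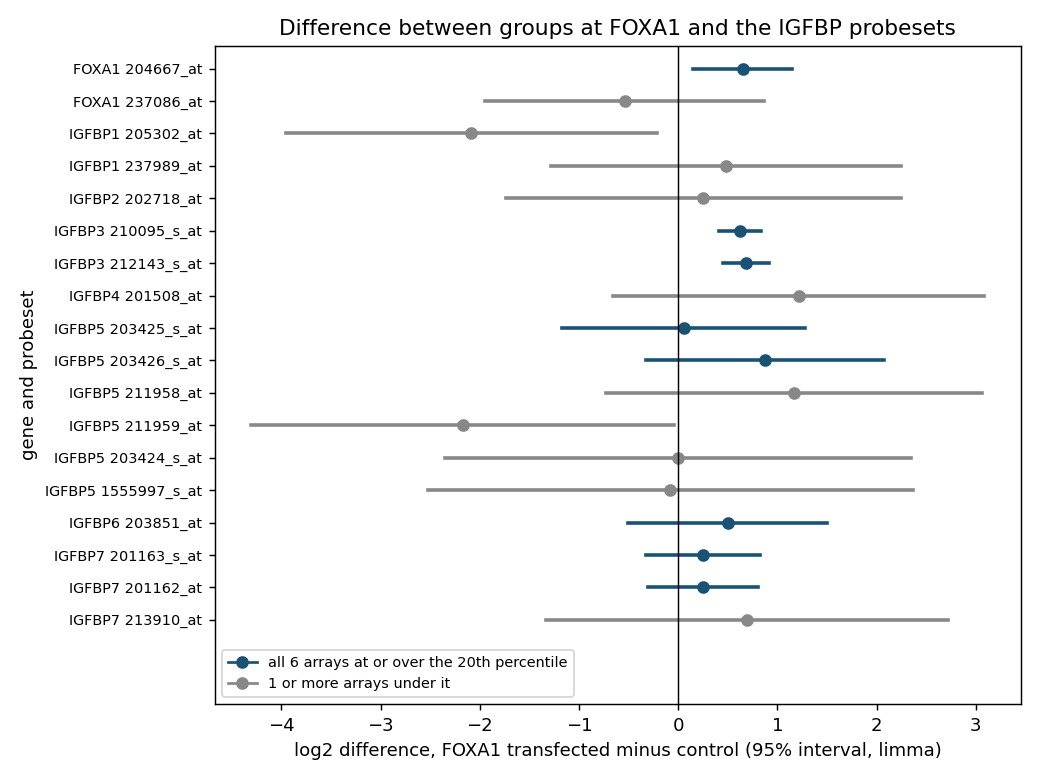
Log2 difference (FOXA1 transfected minus control, with the limma 95% interval) at 2 FOXA1 and 16 IGFBP probesets, coloured by whether all 6 arrays reached the 20th percentile of signals. The IGFBP3 intervals (0.41 to 0.83 and 0.45 to 0.91) lie above 0 and are narrow, while intervals of dim probesets span several log2 units.

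Whether IGFBP3 differed by another amount than the other members was tested within arrays, as the log2 signal of IGFBP3 minus that of the other gene at their brightest probesets. The log2 difference of IGFBP3 exceeded that of IGFBP7 by 0.37, of IGFBP2 by 0.37, of IGFBP5 by 0.57, of IGFBP6 by 0.12 and of IGFBP1 by 2.71. Against IGFBP4 it was -0.59. The gap to IGFBP1 did not overlap between groups, and the other 5 did. IGFBP1, IGFBP2 and IGFBP4 had 4, 6 and 5 of 6 arrays under 3.5 at these probesets, so the gaps to them rest on low signals. In exact two-sided permutation tests p was 0.1 for IGFBP1 and 0.4 to 0.9 for the others, and 0.6 to 0.9 after Benjamini-Hochberg adjustment over the 6 comparisons. With 3 arrays a group none of these tests can reach 0.05, so a difference between IGFBP3 and the other members was neither shown nor excluded by them.

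The wider IGF axis was described through lists of ligands and receptors, signalling genes, IGFBP proteases with their inhibitors, other proteins with an IGFBP-type domain and proteins that bind IGFBP3. Each gene was taken at its brightest probeset. Of 67 genes 63 were read, and the others were not analysed here. None of the 63 passed limma or SAM (18 of 19775 genes, 0.091%, did by limma), and 11 had an unadjusted p under 0.05, 5 higher and 6 lower, beside 14.6% of all genes. The log2 difference was above 0 in 32 and below 0 in 31 with a median of 0.003, beside 59.2% above 0 and a median of 0.07 over all genes. All FOXA1 transfected arrays were above all control arrays in 7 (12.5% of all genes) and below in 5 (7.25%).

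Ligands and receptors had 0 of 7 past an unadjusted p of 0.05, 1 above 0 and 6 below, with a median log2 difference of -0.13. INS, which gave that median, read 0.5 to 0.9 over the arrays, all under 3.5. IGF1, IGFALS and INSRR also had arrays under 3.5, so the directions of these genes rest on low signals. IGF1R, the receptor through which IGFs signal, read 116 ± 12.8 after FOXA1 transfection and 126 ± 32.5 in the controls. IGF2R, which takes up IGF2 for degradation, had 599 ± 18.9 and 641 ± 51.2 (SD, n = 3 each). Their log2 differences were both -0.10, with overlapping groups. The insulin receptor gene INSR was at 16.2 ± 11.5 and 19.5 ± 4.28, and the ligand IGF1 at 7.83 ± 5.03 and 11.0 ± 8.01.

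Signalling genes had 4 of 13 at an unadjusted p under 0.05, 2 in each direction, with a median log2 difference of -0.03. GRB14, an adaptor that inhibits the insulin receptor, read 126.5 ± 4.11 in FOXA1 transfected and 195 ± 2.07 in control arrays, a log2 difference of -0.63 (SE 0.10) with the same limma adjusted p as IGFBP3, 0.0590. As for IGFBP3, the study's list gives this GRB14 probeset in the opposite direction. AKT1, the kinase downstream of PI3K, read 125 ± 9.22 and 75.5 ± 11.2, a log2 difference of 0.73 (SE 0.14, limma adjusted p = 0.103). IRS2, a docking protein of both receptors, read 895 ± 9.96 and 1096 ± 83.4, a log2 difference of -0.29 (limma adjusted p = 0.209). None of these groups overlapped. With only the brighter probesets tested, as above, GRB14 and AKT1 passed, 2 of the 45 genes then read.

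Among the 19 proteases and inhibitors 4 had an unadjusted p under 0.05, 1 higher and 3 lower, and the median log2 difference was 0.006. The collagenase MMP1, which can cut IGFBP3, read 93.5 ± 21.9 in FOXA1 transfected and 150 ± 19.5 in control arrays (log2 difference -0.70, limma adjusted p = 0.179). The urokinase gene PLAU read 1305 ± 96.0 and 1583 ± 129 (-0.28, limma adjusted p = 0.263). PAPPA2, a pappalysin that cuts IGFBP3 and IGFBP5, read 49.1 ± 9.88 and 32.7 ± 2.86 (0.57, limma adjusted p = 0.328). The groups did not overlap at any of these genes.

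Of 13 other proteins with an IGFBP-type domain 9 were above 0 (59.2% of all genes) and 4 below, with a median of 0.11. Among those above 0, CCN3, CCN4, CCN5 and HTRA4 had arrays under 3.5, as did CCN6 and IGFBPL1 among those below. The smallest p belonged to the serine protease HTRA1, also on the protease list, at 42.5 ± 6.20 and 59.8 ± 11.0 (log2 difference -0.49, limma adjusted p = 0.370). CCN6 was dim, at 2.03 ± 1.14 and 5.93 ± 0.493 (-1.69, adjusted p = 0.413), and the matricellular gene CCN1 read 4002 ± 410.4 and 3538 ± 230.3 (0.18, adjusted p = 0.503). The 12 IGFBP3 partners were split 6 and 6, with a median of -0.002. TGFBR2, a receptor of TGF-β, read 204 ± 15.0 and 170 ± 6.93 (0.26, adjusted p = 0.346 by limma), the caveolar protein gene CAV1 2273 ± 70.8 and 1986 ± 125 (0.20, adjusted p = 0.354), and KPNB1, the importin that carries IGFBP3 to the nucleus, 4078 ± 233 and 3663 ± 181 (0.15, adjusted p = 0.485). TMEM219, the cell surface receptor of IGFBP3, was at 338 ± 13.2 and 339.6 ± 22.6.

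**Figure D5:**
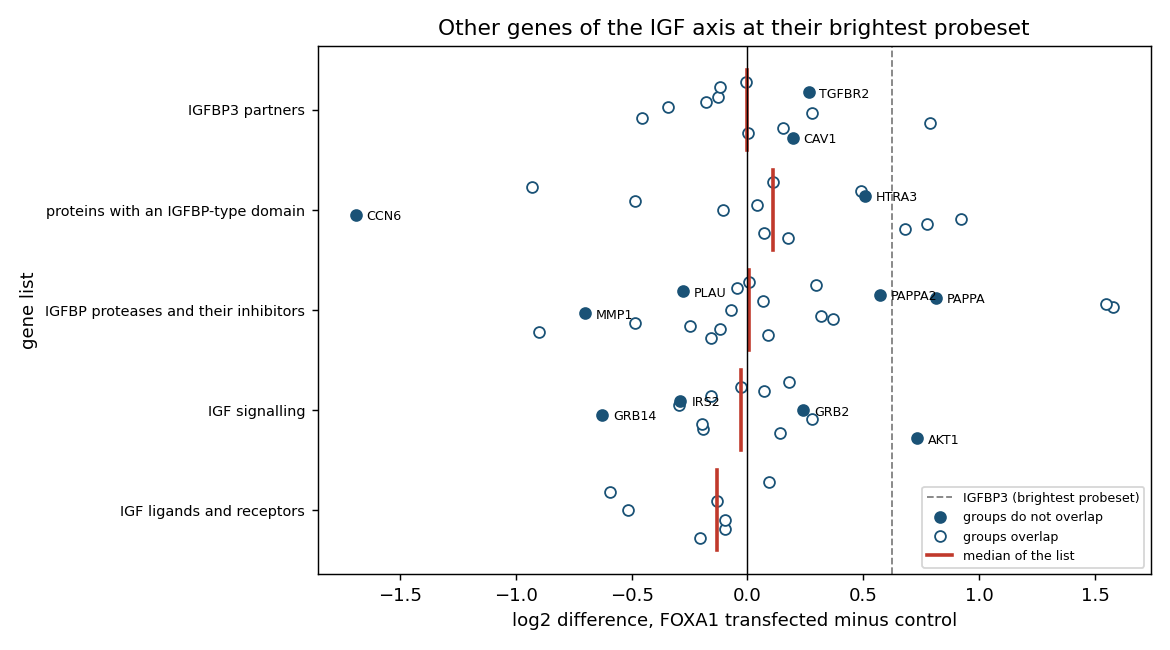
Log2 difference (FOXA1 transfected minus control) of 63 other IGF axis genes at their brightest probeset in 5 lists, filled and named where the groups do not overlap, with red lines for list medians and a dashed line at the 0.62 of IGFBP3. List medians lie between -0.13 and 0.11, and HTRA1 is drawn in both lists that hold it.

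The genes whose log2 signals over the 6 arrays were most like those of IGFBP3 at 210095_s_at were taken from 22652 single-symbol probesets above the median mean signal, with Pearson r as a description only. The closest were MAN1A2, a Golgi mannosidase (r = 0.999), HNRNPU, a nuclear RNA-binding protein (0.997), MIR3936HG (0.996), PNKD (0.995) and TNPO1, a nuclear import receptor (0.995). The most opposed were TSPO, a mitochondrial outer membrane protein (-0.996), LIN7A (-0.996), WDR45, an autophagy protein (-0.996), TCF20 (-0.994) and FGD6 (-0.993). All these values share the same 6 arrays and their split into groups. None of the 10 passed limma (adjusted p 0.152 to 0.523).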

How the data were processed

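The authors deposited linear MAS5 signals (intensity values with 1 decimal), scaled so that the mean without the 2% at each end was 100.01. The methods describe oligo-d(T) priming and a later RMA log2 step with SAM, but the deposited intensity values hold no RMA step. Groups and array numbers came from the labels, and 0 columns were left unmapped. The members and gene lists were chosen with earlier results of these data known.

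Array control probesets (62 of 54675) were left out. The 25 signals listed at 0 were set to 0.1, log2 was taken, and limma 3.58.1 (R 4.3.3; lmFit, eBayes with trend) tested FOXA1 transfected against control arrays, two-sided. Adjustment was by Benjamini-Hochberg over 54613 probesets, at a threshold of 0.05. Single values had an exact two-sided permutation test (an implementation written here). Symbols came from the platform annotation, and 41037 of 41091 single-symbol probesets matched a current gene. Probesets with several symbols (1801) or none (11721) were not named. Named were all members, FOXA1, up to 3 genes of smallest p per list, and the 5 most and 5 least similar to IGFBP3. IGF1R, IGF2R, INSR, IGF1 and TMEM219 were named as the receptors and ligand of the system, outside that rule. INS, INSRR, CCN3, CCN4, CCN5, HTRA4 and IGFBPL1 were named only for their low signals. The number of arrays limits the precision. Detection calls were not used. The scripts were tested on simulated data.

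Alternatives were SAM (an implementation written here), limma without trend, quantile normalization, median centring, a floor at the 20th percentile (3.5), a pseudocount of 16, a test of the probesets brighter than the median mean signal (14.5) alone (dim probesets left out), omission of probesets ending in _x_at, means or medians over a gene's probesets, a replicate block, and omission of each array in turn. Settings for the IGFBP3 mean were added after seeing the data.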

Additional observations from a re-analysis of the deposited data

How the results depend on the processing

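Both IGFBP3 probesets kept their direction in all 15 other settings, and adjusted p decided the call. At 210095_s_at the log2 difference was 0.62 with dim probesets left out (adjusted p = 0.0212), the only setting past the threshold, and 0.56 to 0.71 with 1 array left out. At 212143_s_at it was 0.68 with dim probesets left out (0.0283) and 0.68 with the replicate block (0.0405), and 0.64 to 0.75 with 1 array left out, passing only without FOXA1 replicate 3 (0.0498). SAM gave a q of 0.498 at each. As the mean of its probesets IGFBP3 differed by 0.65 (limma adjusted p = 0.0427), by 0.47 after median centring, by 0.65 with the replicate block (0.0746) and by 0.62 to 0.69 with 1 array left out (0.0840 to 0.216), so leaving out any single array lost the call. The main test did not take the array numbers as pairs. Over the brighter probesets, deviations of same-numbered arrays from their group means had correlations of 0.0439, 0.164 and 0.107. Those of arrays with unlike numbers ran from -0.1326 to 0.0293. Over all probesets the correlations were 0.0022, 0.0381 and 0.011 for same-numbered arrays and -0.0254 to 0.0159 for unlike numbers. Same-numbered arrays were thus more alike over the brighter probesets, but not throughout over all probesets. Whether same-numbered arrays were prepared together is not given. The block, which takes the numbers as pairs, changed no other call at a member.

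The probesets called over the whole array numbered 32, and 3 by SAM, 1 without trend, 7 after median centring, 18 with the pseudocount, 174 with dim probesets left out, 85 with the replicate block and 4 to 76 with 1 array left out (10, 6 and 76 without FOXA1 replicate 1, 2 and 3, and 10, 5 and 4 without control replicate 1, 2 and 3). Of the IGF axis 2 genes passed with dim probesets left out. The median log2 difference of all probesets was 0.08, and -0.10 after median centring and -0.005 after quantile normalization.

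Of 198 values of the other 14 member probesets none passed and 19 changed sign, at 8 probesets. IGFBP5 at 203425_s_at was -0.071 after quantile normalization and -0.13 after median centring, at 1555997_s_at 0.19 with the floor and 0.033 with the pseudocount, and -0.026 as a gene mean. With 1 array left out the ranges were -0.28 to 1.01 at 237989_at of IGFBP1, -0.48 to 0.83 at 202718_at of IGFBP2, -0.34 to 0.67 at 203425_s_at of IGFBP5, -0.89 to 1.13 at 203424_s_at of IGFBP5, -1.24 to 0.76 at 1555997_s_at of IGFBP5, -0.077 to 0.55 at 201163_s_at of IGFBP7, -0.064 to 0.47 at 201162_at of IGFBP7, -0.21 to 1.33 at 213910_at of IGFBP7. At IGFBP5 203426_s_at, which kept its sign, the range was 0.54 to 1.21, and the pseudocount gave 0.32. At 237989_at of IGFBP1 and at IGFBP2 the floor leaves no value. Low signal over background limits what can be said of IGFBP1, IGFBP2, IGFBP4 and IGFBP5.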
